A study of Mus musculus with 20 samples.

Results

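Collagens are the triple-helical proteins of the extracellular matrix, and small leucine-rich proteoglycans are matrix proteins that bind to them. The genes described here are the collagen chains together with lumican (Lum), decorin (Dcn), biglycan (Bgn), fibromodulin (Fmod) and osteoglycin (Ogn). A gene was taken where its row on the array carries exactly 1 symbol and that symbol has the form of a collagen chain name or is 1 of these 5. The rule gave 47 genes of the 30142 measured, 42 collagen chains and 5 proteoglycans, each with 1 row. By class they are 11 fibrillar chains, 6 basement membrane chains, 5 beaded filament chains, 9 chains of the fibril-associated type (FACIT), 3 short-chain network formers, 4 transmembrane collagens, 2 multiplexins, 2 other chains and 5 proteoglycans. Col6a4 and Col7a1 share their rows with a second gene and were not used here, and Col21a1 was not analysed here.

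Fibrillar collagens of types I, III and V assemble into the banded fibrils that give the bladder wall its tensile strength, and fibroblasts are their main source. Basement membranes under the urothelium, and around smooth muscle and vessels, are sheets of type IV collagen, while type VI forms beaded filaments between fibrils and cells. FACIT collagens and the small leucine-rich proteoglycans sit on fibril surfaces, where they set fibril spacing and diameter, and decorin and biglycan also bind growth factors of the TGF-beta family.

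The samples come from a mouse model of bladder cancer. All mice were CKO animals of the FVB/N strain background, in which Rb (Rb1) is 1 of the floxed genes and p107 (Rbl1) is absent, so every group, normal bladders included, carries these alleles. There were 3 arrays of treated bladders, from mice that had Adeno-Cre placed in the bladder and were then given palbociclib, an inhibitor of Cdk4 and Cdk6, at 150 mg/kg daily for 28 days and CDDP, a platinum compound, at 6 mg/kg weekly. There were 4 arrays of metastases, 1 of a metastasis whose title names palbociclib (palbo metastasis), 7 of tumour bladders, inoculated with Adeno-Cre only, and 5 of normal bladders, for which no inoculation is given. Cre acts in whatever bladder cells the adenovirus enters. The site of a metastasis, the dose behind the palbo metastasis, and the age and sex of the mice are not given in the labels used here. Nor do the labels say that arrays stand for separate animals, so the p-values measure the spread between these samples.

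Values are RMA expression levels on a log scale whose base, not given, was taken as 2, so that a difference of 1 is a 2-fold change. Array medians lay between 5.11 and 5.48, and the precision is limited by the number of arrays. As for the targeted genes, Rb1 lay between 5.44 and 6.45 and Rbl1 between 6.02 and 8.30, and where their probes lie relative to the deleted parts is not given, so these levels do not check the labels. The arrays were of 2 kinds. On 8 of them (metastases 3 and 4, tumour bladders 3, 4 and 5, and normal bladders 4, 5 and 6) bright genes stayed close to their mean over all arrays. These 8 were set apart, with earlier results of these data known, by the deviations of rows from their mean over all arrays. The SD of these deviations in dim rows was above 0.30. In bright rows their correlation with the deviations of every other array was below 0.25. Of the 47 members, 45 had a larger SD on the other 12 arrays than on the 8, against 50.2% of all genes, with a median SD of 0.20 on the 12 and 0.133 on the 8. Bright rows, members among them, helped to set the 8 apart, so this contrast follows in part from that choice. Results are over the 20 arrays, with values over the 12 and within the 8, which hold no treated bladder, given beside those that turn on the choice of arrays. Xist, which is expressed from the inactive X chromosome, was between 5.43 and 5.86 on the tumour bladders and metastases among the 12, against 11.74 and 11.71 for normal bladders 1 and 2, which are all the normal bladders that the 12 hold. Treated bladders 1 to 3 had Xist at 7.10, 6.04 and 10.05, the palbo metastasis 6.44, and the 8 arrays 6.74 to 7.19, so comparisons of treated bladders also set arrays of unlike Xist level against each other. On the 12 arrays the sex of the mice cannot be told apart from tumour or metastasis against normal.

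Markers of bladder tissue differed widely among arrays of 1 label. The mean of 6 luminal urothelium genes, uroplakins among them, was 7.93 to 9.27 on treated bladders, 5.42 to 7.33 on metastases, 4.66 on the palbo metastasis, 5.42 to 11.32 on tumour bladders and 7.14 to 9.57 on normal bladders. The mean of 8 smooth muscle genes ran alongside it, from 7.0 to 8.83, from 5.63 to 6.90, at 4.88, from 5.59 to 10.29 and from 6.94 to 9.10 in the same order of groups. Tumour bladder 7 was the highest array in both lists, and tumour bladder 6 was the lowest tumour bladder in both. In bulk tissue, fewer cells of a type and less RNA per cell cannot be told apart.

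The largest spread among the members was between the tumour bladders themselves. On the 12 arrays, 7 members ranged over at least 2 log2 units: Lum (4.59), Bgn (4.5), Col12a1 (4.35), Dcn (3.62), Ogn (2.95), Col1a1 (2.80) and Col1a2 (2.19). Of these 7, 6 had their highest level on tumour bladder 6, the exception being Dcn, which was highest on normal bladder 1. At the other end, 31 members ranged over less than 1 unit, and 9 lay between. Over all genes, 7.70% ranged over at least 2 units and 60.2% over less than 1. Both cutoffs were chosen after the levels were seen.

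**Figure D1:**
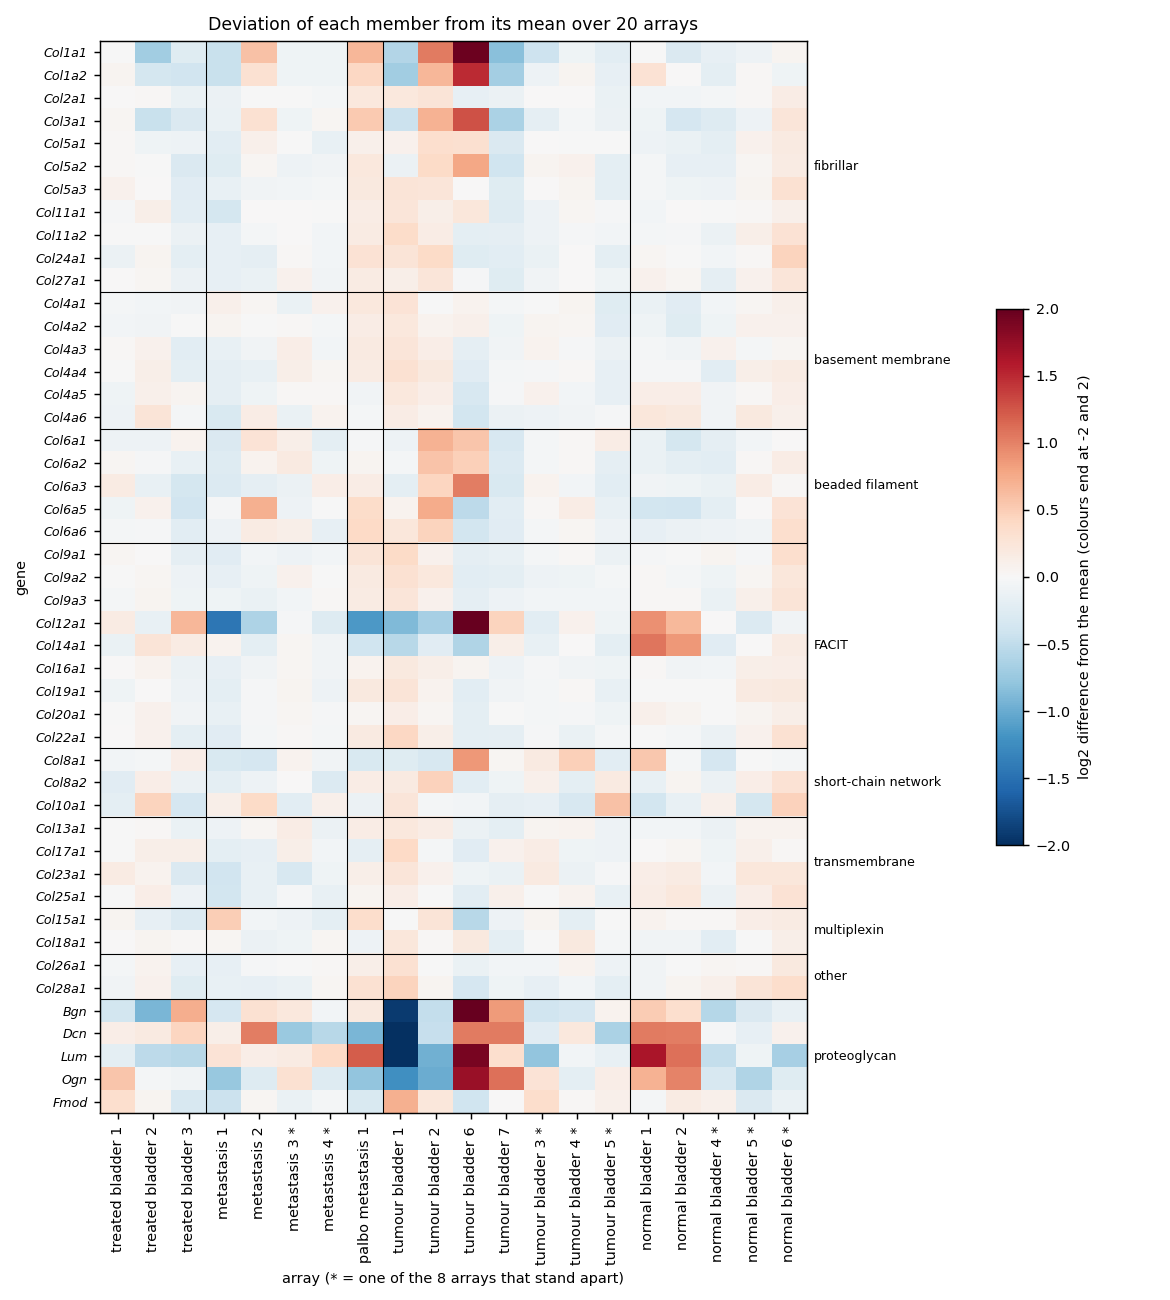
Level of each of the 47 members (down the page, by class) on each of the 20 arrays (across, by group), shown as the log2 difference from the member's mean over all arrays; an asterisk marks the 8 arrays that stand apart. Tumour bladder 6 is red in Col1a1, Col1a2, Col3a1, Col12a1, Bgn, Lum and Ogn, tumour bladder 1 is blue in the proteoglycans other than Fmod, and the 8 arrays are pale in most genes.

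Among the fibrillar chains, Col1a1, Col1a2, Col3a1 and Col5a2 were high on tumour bladders 6 and 2 and moved together over the 12 arrays. Col1a1, the major chain of type I collagen, was at 7.69, 7.0 and 7.45 on treated bladders, at 7.24, 8.28, 7.61 and 7.60 on metastases, and at 8.36 on the palbo metastasis. On tumour bladders Col1a1 had a lowest, median and highest level of 6.86, 7.48 and 9.66, and on normal bladders it was at 7.68, 7.40, 7.54, 7.59 and 7.74. The tumour bladders thus enclosed every other group, with tumour bladder 6 (9.66) and tumour bladder 2 (8.73) at the top and tumour bladder 7 (6.86) at the bottom. The same order held for Col3a1, the chain of type III collagen, at 8.37 on tumour bladder 6, 7.80 on tumour bladder 2 and 6.47 on tumour bladder 7. Col1a2, the second chain of type I, reached 8.30 and 7.47 on tumour bladders 6 and 2 and was at 6.11 and 6.12 on tumour bladders 1 and 7. Tumour bladders 2 and 6 also had the highest levels of Col5a2, a type V chain that regulates fibril diameter, at 6.86 and 7.24, where the other 5 tumour bladders lay between 6.06 and 6.56.

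**Figure D2:**
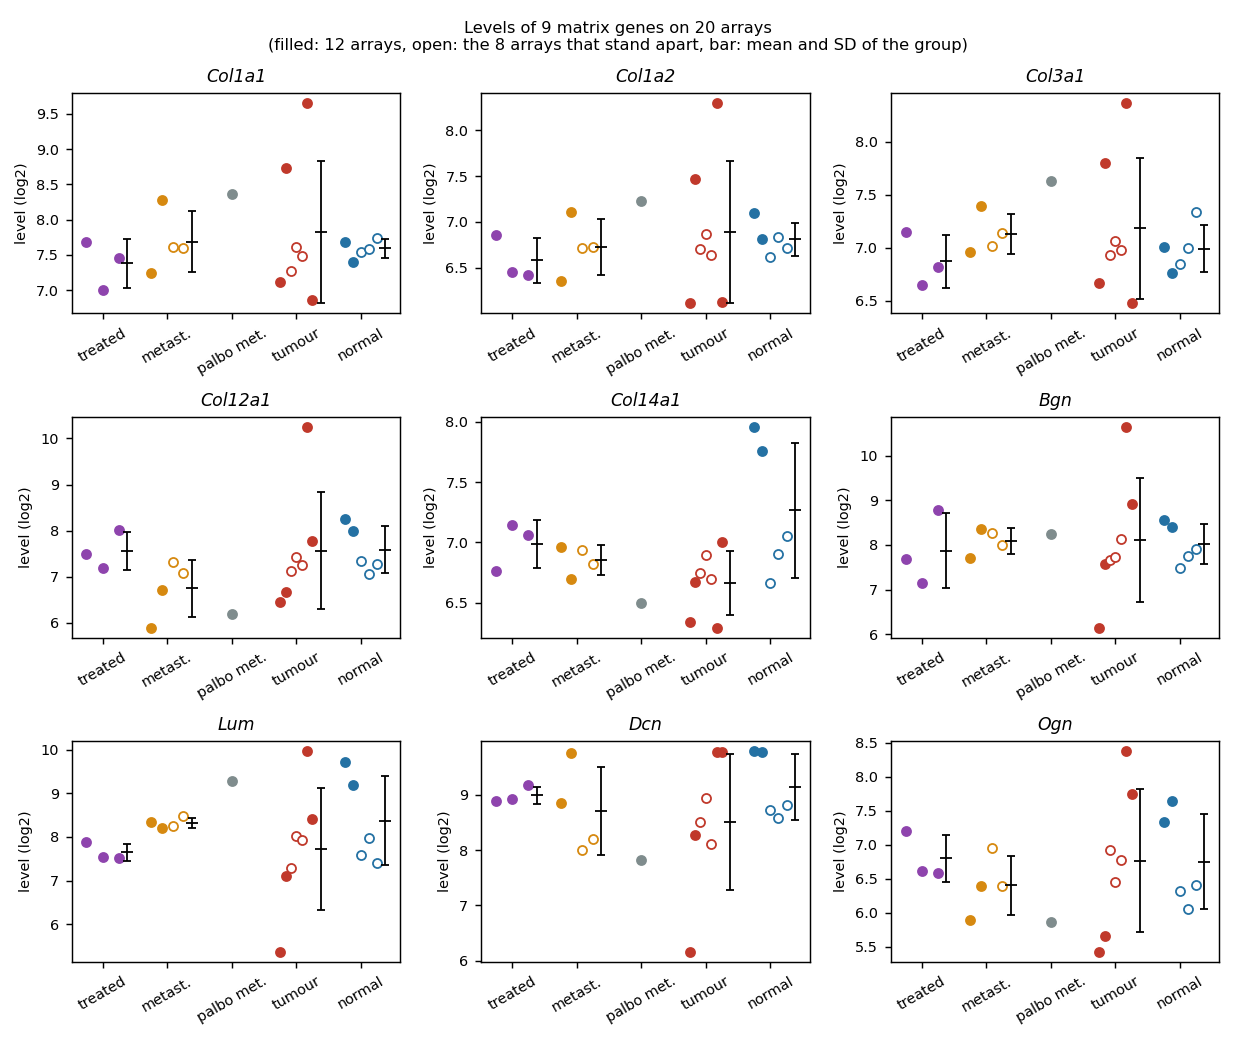
Level (log2) of 9 matrix genes on each array, by group, with filled circles for the 12 arrays, open circles for the 8 that stand apart, and bars for the mean and SD of each group of more than 1 array. Tumour bladders reach from 6.86 to 9.66 in Col1a1 and from 5.38 to 9.96 in Lum, a wider span than any other group in these panels except for Col14a1, where normal bladders reach from 6.67 to 7.96.

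Over the 12 arrays, Col1a1 correlated with Col3a1 at r = 0.987 (rho = 0.979), with Col1a2 at r = 0.962 (rho = 0.923), with Col5a2 at r = 0.927 (rho = 0.832) and with Col6a3 at r = 0.888 (rho = 0.755). Permutation p-values adjusted over the 14 relations computed with Col1a1 were 7e-05, 7e-05, 0.00028 and 0.0022 for r, and 0.00014, 0.00056, 0.0076 and 0.022 for rho. Without tumour bladders 6 and 2, the 2 arrays farthest from the Col1a1 median, r was 0.962 for Col3a1, 0.893 for Col1a2 and 0.744 for Col5a2, and 0.576 for Col6a3, whose relation rests largely on those arrays. Within the 8 arrays the same relations had r = 0.699 for Col3a1 (rho = 0.833), 0.273 for Col1a2, 0.266 for Col5a2 and 0.039 for Col6a3. Exact permutation p-values there, adjusted over 24 relations, were 0.32 and 0.18 for Col3a1 and at least 0.71 for the other 3 genes. None passed within the 8, though the exact permutation p for the rho of Col3a1 was 0.015 before adjustment. Col1a1 varied less on the 8 (SD 0.135) than on the 12 (SD 0.824), so a relation that did not pass there is not shown to be absent. Col4a1, the only type IV chain set against Col1a1, had r = 0.179 on the 12 arrays (rho = 0.189, adjusted permutation p = 0.64 and 0.73). For Dcn r was 0.141 (rho = -0.063, adjusted permutation p = 0.65 and 0.85). Neither relation passed, which does not show that it is absent. Col17a1, the transmembrane collagen of epithelial hemidesmosomes, ran the other way at r = -0.638 (rho = -0.713), with adjusted permutation p-values of 0.06 and 0.033 on the 12 arrays, and at r = -0.261 within the 8 (adjusted exact permutation p = 0.74). The basal keratin Krt5 stood at r = -0.618 and the smooth muscle myosin Myh11 at r = -0.613, each with an adjusted permutation p of 0.06.

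**Figure D3:**
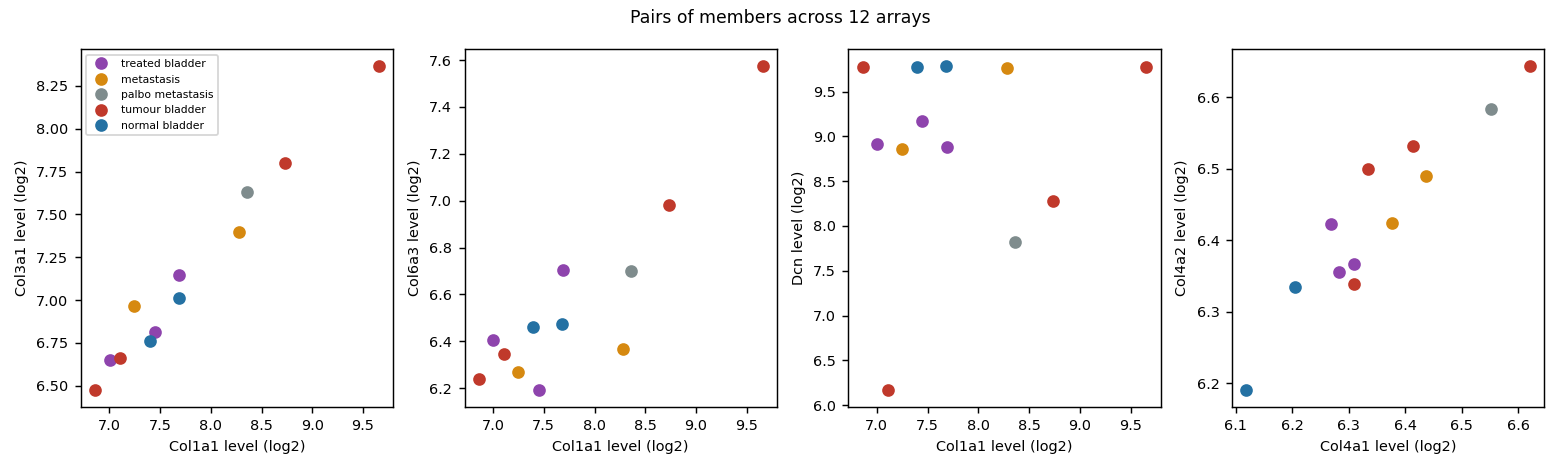
Levels (log2) of 4 pairs of members on the 12 arrays, 1 point per array, coloured by group. Col3a1 and Col1a1 fall on a line (r = 0.987), Col6a3 follows Col1a1 less closely (r = 0.888), Dcn does not follow it (r = 0.141), and Col4a2 follows Col4a1 (r = 0.935).

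Sequence just upstream of 2 of the coordinated fibrillar genes is shown because their levels moved together. It comes from RefSeq (mouse build GRCm38.p6) and runs 5′ to 3′ on the gene's strand from 250 bases before the annotated start to 50 after it. Capitals mark 4 short motifs on either strand. They are the TATA box TATAAA, the CCAAT box, the GC box GGGCGG, and the motif CAGAC, which Smad proteins can read. The Col1a2 window is chr6:4505368-4505667 on the plus strand, and the Col3a1 window is chr1:45311288-45311587 on the plus strand.
Col1a2: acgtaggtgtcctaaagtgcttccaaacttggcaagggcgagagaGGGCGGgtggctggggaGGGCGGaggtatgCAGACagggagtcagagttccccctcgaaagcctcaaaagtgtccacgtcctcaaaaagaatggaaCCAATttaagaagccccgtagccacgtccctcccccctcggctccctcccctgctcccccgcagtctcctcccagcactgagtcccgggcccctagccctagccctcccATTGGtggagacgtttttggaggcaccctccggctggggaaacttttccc
Col3a1: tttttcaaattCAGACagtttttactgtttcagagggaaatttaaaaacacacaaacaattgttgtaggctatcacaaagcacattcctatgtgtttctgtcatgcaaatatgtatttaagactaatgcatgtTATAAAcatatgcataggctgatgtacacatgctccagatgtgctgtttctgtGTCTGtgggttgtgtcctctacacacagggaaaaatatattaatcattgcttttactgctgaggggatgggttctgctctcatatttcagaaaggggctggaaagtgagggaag

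In the Col1a2 window, CCAAT lies 109 bases before the start and again, on the other strand, at the start, GGGCGG lies 205 and 188 bases before it, and CAGAC 175 bases before it. The Col3a1 window holds TATAAA 117 bases before the start and CAGAC 239 and, on the other strand, 64 bases before it, with no CCAAT and no GGGCGG. The 2 genes thus share CAGAC alone among the 4 motifs. Windows were found for 36 of the 47 members, 39 windows in all. TATAAA was in 15.4% of them against 13.6% of 32851 mouse promoter windows, CCAAT in 30.8% against 37.4%, GGGCGG in 56.4% against 35.7%, and CAGAC in 51.3% against 49.6%. A match describes the letters in the window and is not evidence of a bound factor.

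Other fibrillar chains stayed within a narrow range. Col2a1, Col11a1 and Col11a2, which form the fibrils of cartilage, ranged over 0.42, 0.59 and 0.563 on the 12 arrays. The mean of 5 cartilage markers lay between 5.09 and 5.48 on all arrays, beside array medians of 5.11 to 5.48. Col5a1 (0.636), Col5a3 (0.49), Col24a1 (0.632) and Col27a1 (0.477) were as narrow. Within its narrow range Col5a1 was highest on tumour bladders 2 (6.23) and 6 (6.22) and lowest on tumour bladder 7 (5.60). The same arrays were at the top and bottom for Col1a1, and the correlation of these genes was not computed.

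The basement membrane chains differed little in level, and each pair of neighbouring genes moved together over the 12 arrays. Col4a1 and Col4a2, which encode the ubiquitous chains of type IV collagen, were at 6.31, 6.28 and 6.27 and at 6.37, 6.36 and 6.42 on treated bladders 1 to 3. On metastases 1 and 2 they were at 6.44 and 6.38 (Col4a1) and at 6.49 and 6.42 (Col4a2), and on the palbo metastasis at 6.55 and 6.58. Tumour bladders 1, 2, 6 and 7 had Col4a1 at 6.62, 6.33, 6.41 and 6.31 and Col4a2 at 6.64, 6.50, 6.53 and 6.34, against 6.20 and 6.12 and then 6.33 and 6.19 on normal bladders 1 and 2. On these 12 arrays every treated, metastatic and tumour sample thus lay above both normal bladders in both genes. The log2 difference of Col4a1 on the 12 was 0.257 for tumour against normal (SE 0.135, limma adjusted p = 0.993). Within the 8 arrays Col4a1 was at 6.34, 6.40 and 6.11 on tumour bladders 3, 4 and 5 and at 6.29, 6.38 and 6.45 on normal bladders 4, 5 and 6, so the groups overlapped there.

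Col4a1 and Col4a2 are neighbours on chromosome 8, on opposite strands with annotated starts 21 bases apart and 5′ ends that overlap, and their windows overlap by 78 bases. Both windows are shown because the genes share this stretch: Col4a1 at chr8:11312777-11313076 on the minus strand and Col4a2 at chr8:11312555-11312854 on the plus strand of GRCm38.p6. The capitals mark the same 4 motifs.
Col4a1: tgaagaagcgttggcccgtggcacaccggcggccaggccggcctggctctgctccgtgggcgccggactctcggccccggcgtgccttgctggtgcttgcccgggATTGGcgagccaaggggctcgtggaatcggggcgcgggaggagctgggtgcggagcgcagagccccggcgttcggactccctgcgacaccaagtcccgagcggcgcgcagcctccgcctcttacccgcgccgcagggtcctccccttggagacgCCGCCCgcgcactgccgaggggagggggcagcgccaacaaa
Col4a2: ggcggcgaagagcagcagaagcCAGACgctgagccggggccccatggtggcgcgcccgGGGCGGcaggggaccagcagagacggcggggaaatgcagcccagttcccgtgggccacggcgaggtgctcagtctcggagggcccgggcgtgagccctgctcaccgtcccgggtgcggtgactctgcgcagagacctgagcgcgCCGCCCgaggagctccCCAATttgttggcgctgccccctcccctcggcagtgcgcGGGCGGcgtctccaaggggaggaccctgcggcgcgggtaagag

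Both windows hold CCAAT, once each, and GGGCGG, once in Col4a1 and 3 times in Col4a2. The GGGCGG of Col4a1 lies in the stretch that the windows share. It is the same site as 1 of the 3 in Col4a2, read on the other strand. CAGAC is in the Col4a2 window, 228 bases before the start, but not in that of Col4a1, while TATAAA is in neither. Over the 12 arrays the 2 genes correlated at r = 0.935 (rho = 0.902), Col4a3 and Col4a4 at r = 0.974 (rho = 0.979), and Col4a5 and Col4a6 at r = 0.84 (rho = 0.706). Adjusted permutation p-values were 0.0001, 0.0001 and 0.0012 for r and 0.0013, 0.0001 and 0.018 for rho, over 10 relations chosen after the levels were seen. After each array's median was subtracted, r was 0.925, 0.891 and 0.767. Without the 2 farthest arrays it was 0.881 and 0.959 for the first 2 pairs and 0.602 for Col4a5 with Col4a6. Within the 8 arrays r was 0.747, 0.18 and 0.285, and none of the 3 passed (adjusted exact permutation p = 0.25, 0.77 and 0.74). Each pair consists of neighbouring genes, on chromosome 8, chromosome 1 and chromosome X. Type IV chains that are not neighbours were not paired for comparison. All type IV chains are among the 31 members of narrow range, which followed the overall level of the array (given below). These values therefore do not show that moving together is particular to neighbours.

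Among the beaded filament chains, Col6a1, Col6a2 and Col6a3, the 3 chains of the standard type VI molecule, were highest on tumour bladders 2 and 6. Col6a3 was at 7.58 on tumour bladder 6 and 6.98 on tumour bladder 2, where the other 5 tumour bladders lay between 6.24 and 6.62. On treated bladders Col6a3 was at 6.70, 6.40 and 6.19, on metastases at 6.27, 6.37, 6.42 and 6.68, on the palbo metastasis at 6.70 and on normal bladders at 6.47, 6.46, 6.41, 6.70 and 6.57. Col6a1 was at 7.22 and 7.07 on tumour bladders 2 and 6 and at 6.42, 6.42 and 6.59 on treated bladders, 6.23 to 6.79 on metastases, 6.50 on the palbo metastasis and 6.18 to 6.52 on normal bladders. Col6a1 and its neighbour on chromosome 10, Col6a2, correlated at r = 0.941 over the 12 arrays (rho = 0.867, adjusted permutation p = 0.00012 and 0.0016), at 0.75 without tumour bladders 2 and 6, and at 0.387 within the 8 (adjusted exact permutation p = 0.73). Col6a5, an alternative to Col6a3 in the molecule, was instead lowest on tumour bladder 6 (5.46) and highest on tumour bladder 2 (6.73) and metastasis 2 (6.71).

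Of the FACIT chains, Col12a1 and Col14a1 varied most, and they differed in where they were high. Col12a1, the chain of type XII collagen found on fibrils in dense and stressed tissue, was at 7.50, 7.18 and 8.01 on treated bladders. On metastases it was at 5.90, 6.72, 7.31 and 7.07, and on the palbo metastasis at 6.18. Tumour bladders ran from 6.45 through a median of 7.26 to 10.25 on tumour bladder 6, and normal bladders had 8.26, 7.98, 7.34, 7.07 and 7.27. The next tumour bladder after number 6 was number 7, at 7.78, and the 5 lowest arrays were metastasis 1, the palbo metastasis, tumour bladders 1 and 2 and metastasis 2. Col14a1, the chain of type XIV collagen, was at 6.76, 7.14 and 7.06 on treated bladders, at 6.96, 6.70, 6.94 and 6.82 on metastases and at 6.50 on the palbo metastasis. On tumour bladders it had a lowest, median and highest level of 6.29, 6.70 and 7.01, and on normal bladders it was at 7.96, 7.76, 6.67, 6.90 and 7.06. Normal bladders 1 and 2 stood above every other array in Col14a1, and normal bladders 4, 5 and 6 did not. The other 7 FACIT chains ranged over 0.327 (Col20a1) to 0.645 (Col22a1) on the 12 arrays.

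Most of the remaining collagens ranged over less than 1 unit. Col8a1, a short-chain collagen of vessel walls and of membranes beneath cells, reached 6.00 on tumour bladder 6 and 5.66 on normal bladder 1 and lay between 4.79 and 5.60 elsewhere. Col10a1, the collagen of hypertrophic cartilage, lay between 4.98 and 5.94. Col17a1, the hemidesmosome collagen, was at 5.63 on tumour bladder 1, which also had Krt5 at 8.07, and at 5.02 on tumour bladder 6, which had Krt5 at 5.54. Col23a1, a membrane-anchored collagen, was at 6.47, 6.37 and 6.01 on treated bladders and at 5.92, 6.15, 5.98 and 6.20 on metastases. It was at 6.42 on the palbo metastasis, between 6.16 and 6.54 on tumour bladders (median 6.28), and at 6.44, 6.46, 6.25, 6.52 and 6.52 on normal bladders. All 4 metastases thus lay below all 5 normal bladders in Col23a1, and their range overlapped that of the tumour bladders. Of the multiplexins, which lie in basement membrane zones, Col15a1 was at its highest on metastasis 1 (6.63) and at its lowest on tumour bladder 6 (5.59), while Col18a1 ranged over 0.424.

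The proteoglycans varied more than most collagens. Among the tumour bladders, Lum, Dcn, Bgn and Ogn were each lowest on number 1 and highest on numbers 6 and 7, while Fmod was not. Lum, which limits the growth of collagen fibrils, was at 7.88, 7.55 and 7.52 on treated bladders, at 8.35, 8.20, 8.24 and 8.47 on metastases and at 9.29 on the palbo metastasis. On tumour bladders Lum had a lowest, median and highest level of 5.38, 7.92 and 9.96, and on normal bladders it was at 9.70, 9.18, 7.59, 7.98 and 7.42. Tumour bladder 1 was below, and tumour bladder 6 above, every array of the other groups. Dcn, the proteoglycan that coats fibrils and binds TGF-beta, was at 8.88, 8.92 and 9.17 on treated bladders, at 8.86, 9.76, 8.01 and 8.20 on metastases and at 7.82 on the palbo metastasis. Tumour bladders 1 and 2 had Dcn at 6.16 and 8.28 and tumour bladders 6 and 7 had 9.78 and 9.78, against 9.79 and 9.77 on normal bladders 1 and 2. The other 3 tumour bladders had Dcn at 8.12 to 8.95, and the other 3 normal bladders had 8.57 to 8.82. Bgn, a fibril-binding relative of decorin, was at 7.69, 7.14 and 8.79 on treated bladders, at 7.71, 8.36, 8.26 and 8.01 on metastases and at 8.25 on the palbo metastasis. On tumour bladders Bgn had a lowest, median and highest level of 6.15, 7.72 and 10.65, and on normal bladders it was at 8.57, 8.40, 7.48, 7.76 and 7.91. Tumour bladder 6 was thus level with the highest normal bladders in Dcn and above every other array in Bgn. Ogn, first described from bone, was at 6.59 to 7.20 on treated bladders, 5.89 to 6.96 on metastases and 5.87 on the palbo metastasis. It was at 8.38 and 7.75 on tumour bladders 6 and 7 and at 5.43 and 5.66 on tumour bladders 1 and 2, against 7.34 and 7.65 on normal bladders 1 and 2. Fmod, which helps fibrils form and crosslink, was highest on tumour bladder 1 (5.94), where the other 4 proteoglycans were at their lowest, and among its lowest on tumour bladder 6 (4.83).

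The window upstream of Bgn (chrX:73483351-73483650, plus strand, GRCm38.p6) is shown because this gene was among the 3 with the widest ranges. In it GGGCGG occurs 3 times, each on the other strand, with its first base 34, 10 and 6 bases before the start, the last 2 overlapping, and the other 3 motifs do not occur.
Bgn: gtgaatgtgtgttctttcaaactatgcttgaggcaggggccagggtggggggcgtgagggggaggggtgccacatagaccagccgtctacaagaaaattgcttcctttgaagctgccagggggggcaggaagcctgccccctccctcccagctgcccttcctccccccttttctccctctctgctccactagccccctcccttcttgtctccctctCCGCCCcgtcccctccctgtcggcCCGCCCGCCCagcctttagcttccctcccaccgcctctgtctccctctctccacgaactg

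Lum and Dcn are neighbours on chromosome 10, and over the 12 arrays they correlated at r = 0.724 (rho = 0.608, adjusted permutation p = 0.014 and 0.05), but at 0.275 without tumour bladders 1 and 6, so the relation rests on those arrays, and at r = -0.53 within the 8 (adjusted exact permutation p = 0.54). Bgn and Col12a1 correlated at r = 0.783 (rho = 0.72, adjusted permutation p = 0.0073 and 0.016), at 0.502 without the same arrays, and at -0.055 within the 8 (adjusted exact permutation p = 0.94). Kera (keratocan), the neighbour of Lum on its other side, was at 8.74 on tumour bladder 6 and between 4.20 and 5.86 on all other arrays. Aspn (asporin), a close relative that lies near Ogn on chromosome 13, was at 9.90 on tumour bladder 6 and between 6.58 and 7.80 elsewhere. Lum and Kera correlated at r = 0.393 over the 12 arrays (rho = 0.091, adjusted permutation p = 0.19 and 0.78), and Ogn and Aspn at r = 0.574 (rho = 0.343, adjusted permutation p = 0.029 and 0.31), or 0.103 without tumour bladders 6 and 1. Of the 10 further small leucine-rich proteoglycans listed, Kera and Aspn were the 2 with their highest level on tumour bladder 6, while Ecm2 (4.59), Epyc (4.54) and Optc (5.04) had their lowest of the 20 arrays there. Prelp followed another pattern, at 8.04 on tumour bladder 7 against 7.83 and 7.94 on the first 2 normal bladders, with all other arrays between 4.99 and 6.62.

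Genes of collagen processing were also high on tumour bladder 6. Of 32 such genes listed, 28 were measured alone on a row, and their mean was 5.94 to 6.18 on treated bladders, 6.10 to 6.33 on metastases, 6.21 on the palbo metastasis, 5.76 to 6.84 on tumour bladders and 6.02 to 6.20 on normal bladders. Tumour bladder 6 had the highest mean of all arrays and tumour bladder 1 the lowest. Lox and Loxl1, the lysyl oxidases that crosslink fibrils, were at 7.01 and 7.62 on tumour bladder 6, at 6.15 and 6.42 on tumour bladder 2, against 5.19 to 5.59 (Lox) and 5.49 to 6.23 (Loxl1) on normal bladders. Serpinh1, the collagen chaperone of the endoplasmic reticulum, was at 7.98 and 7.56 on tumour bladders 6 and 2 and at 5.94 to 7.0 on all other arrays. P4ha1, which hydroxylates collagen proline, was at 7.87 on tumour bladder 6 and Plod2, which hydroxylates lysine, at 8.05, both the highest of the 20 arrays. Other markers moved on the same array, and their part in these levels was not tested. On tumour bladder 6 the neutrophil gene S100a8 was at 13.56, the highest of all arrays, the mean of 4 neutrophil genes was 9.55 against 4.95 to 8.97 elsewhere, and the smooth muscle and luminal urothelium means were 5.59 and 5.42. The 7 fibroblast markers measured had a mean of 5.94 on this array, within the 5.64 to 6.60 of the other 19. They did not move as one, since Pdgfrb (7.04) was at its highest of the 20 arrays there and Tcf21 (4.59) at its lowest.

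Of the 5 comparisons, several share the tumour or the normal bladders and so are not independent. Tumour bladders were set against normal bladders to ask which matrix genes differ in tumours. Col14a1, Lum and Dcn lay lower and Col6a1 higher in tumour bladders. No member passed the test: 0 of 47 had a limma adjusted p below 0.05, as for all genes (0%). By sign, 25 members were higher and 22 lower in tumour bladders, 53.2% higher against 53.1% of all genes, and the median log2 difference was 0.007 against 0.012 for all genes. The number of higher members was 32 over the 12 arrays, 9 within the 8 and 17 without tumour bladder 6, so the sign count depends on the arrays used. At an unadjusted p below 0.05 there was 1 member (background 4.25%), Col14a1, and no member's groups failed to overlap (background 0.166%). Col14a1 averaged 6.66 ± 0.27 in tumour bladders and 7.27 ± 0.56 in normal bladders (SD, n = 7 and 5), a log2 difference of -0.605 (SE 0.194, limma adjusted p = 0.998). The difference was -1.28 over the 12 arrays (SE 0.221, limma adjusted p = 0.702), where the groups did not overlap, and -0.097 within the 8.

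Col1a1, Col1a2, Col3a1, Col5a1 and Col5a2, the chains of types I, III and V described by role, had 5 positive differences, with a median of 0.12, against 2 without tumour bladder 6 (median -0.006) and 1 within the 8 arrays (median -0.031). Col5a3, the other type V chain, was at -0.007. Col1a1 averaged 7.82 ± 1.01 in tumour bladders and 7.59 ± 0.13 in normal bladders (SD, n = 7 and 5), with a log2 difference of 0.228 that was -0.079 without tumour bladder 6. All 5 beaded filament chains had positive differences too (median 0.145), as they did after each array was centred on its median, and 4 did without tumour bladder 6, but 1 did within the 8 arrays. Col6a1 led them at 0.28 (SE 0.155, limma adjusted p = 0.998), with 6.66 ± 0.36 in tumour bladders and 6.38 ± 0.13 in normal bladders (SD, n = 7 and 5). All 9 FACIT chains had negative differences (median -0.065), against 8 after renewed quantile normalisation and 4 over the 12 arrays. The next smallest p-values belonged to Col4a6 (-0.196, SE 0.104) and Col28a1 (-0.187, SE 0.118) among the lower members and to Col18a1 (0.103, SE 0.086) and Fmod (0.186, SE 0.161) among the higher. Lum and Dcn had differences of -0.646 and -0.624 over the 20 arrays and -1.72 and -1.28 over the 12, and for Lum it was 0.08 within the 8. Without tumour bladder 1, Lum stood at -0.254 and Dcn at -0.233. Over the 12 arrays 5 members did not overlap, Col4a1 and Col4a2 higher and Col14a1, Col4a6 and Col25a1 lower in tumour bladders, which is 10.6% of the members against 12.3% of all genes (7.67% higher and 4.67% lower). On these arrays 5 of 7 fibroblast markers (median -0.499) and all 8 smooth muscle genes (median -2.33) were lower in tumour bladders, and their part was not tested.

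**Figure D4:**
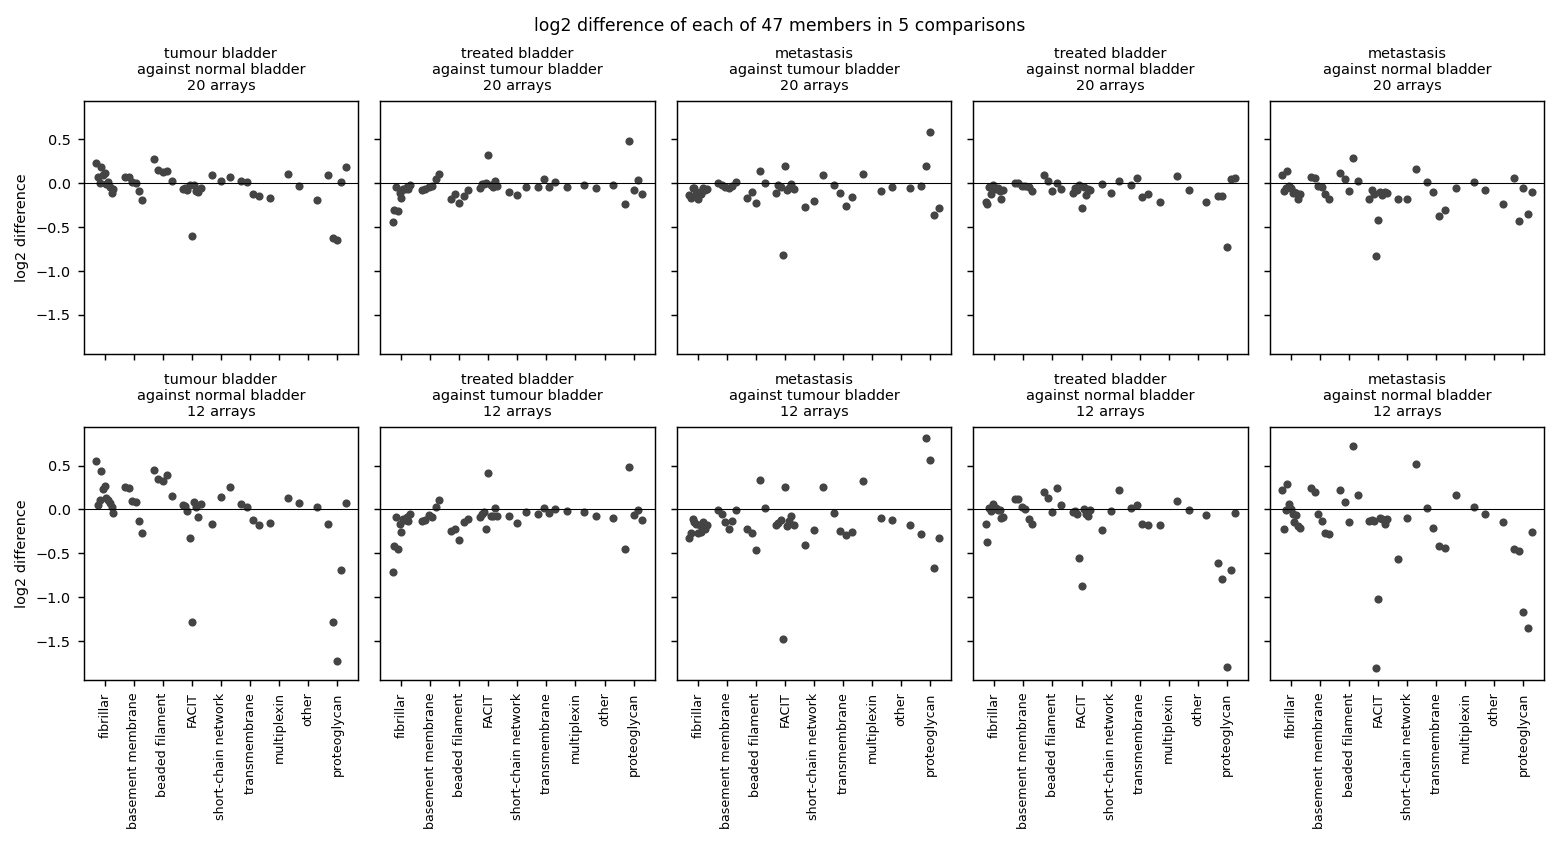
Log2 difference (vertical axis) of each of the 47 members, by class, in 5 comparisons, over the 20 arrays (upper row) and the 12 arrays (lower row). Most points lie within 0.5 of 0 in the upper row, and the lowest points of the lower row are Lum, Dcn, Col12a1, Col14a1 and Ogn; no point passed the test.

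Treated bladders were set against tumour bladders, which shared the inoculation, to ask how the drug pair bears on matrix genes. All 11 fibrillar chains (8 with arrays centred on their medians) and all 5 beaded filament chains lay lower in treated bladders, and none passed. Of the 47 members 0 had a limma adjusted p below 0.05 (background 0%), 0 had an unadjusted p below 0.05 (background 0.342%) and 0 had groups that did not overlap (background 0.129%). By sign, 8 members were higher and 39 lower in treated bladders, 17% higher against 42.6% of all genes, but with arrays centred on their medians 27 were higher and with renewed quantile normalisation 14. The number was 26 without treated bladder 3 (median 0.008), 18 without tumour bladder 1, 20 with array weights and 7 over the 12 arrays. Col1a1, Col1a2, Col3a1, Col5a1 and Col5a2 all had negative differences under each of these scalings, with a median of -0.307 that was -0.072 without tumour bladder 6, and Col5a3 was at -0.063. Col1a1 averaged 7.38 ± 0.35 in treated bladders and 7.82 ± 1.01 in tumour bladders (SD, n = 3 and 7), a log2 difference of -0.438 (SE 0.435, limma adjusted p = 1). Col3a1 had a difference of -0.312 (SE 0.295) and Col6a3 of -0.223 (SE 0.218), with limma adjusted p = 1 for each. The 3 treated bladders lay inside the range of the tumour bladders in all 3 genes except that Col6a3 on treated bladder 3 (6.19) was just below the lowest tumour bladder (6.24). On the other side, Dcn averaged 8.99 ± 0.16 in treated bladders and 8.51 ± 1.23 in tumour bladders (SD, n = 3 and 7), a log2 difference of 0.477 (SE 0.579, limma adjusted p = 1) that was 0.086 without tumour bladder 1. Col14a1 had a difference of 0.326 (SE 0.228) and Col4a6 of 0.106 (SE 0.123). Over the 12 arrays 1 member did not overlap (background 0.627%, or 0.405% lower), Col4a1, which was at 6.27 to 6.31 on treated bladders and just above that, at 6.31 to 6.62, on tumour bladders. Treated bladder 1 had a mean of 9.57 over 4 skeletal muscle genes, against 5.26 to 7.26 on all other arrays, and its part in these values was not tested.

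Metastases were set against tumour bladders next. Col23a1 and Col12a1 lay lower and Lum higher in metastases, and again no member passed. Col23a1 is among the members of narrow range, which followed the overall level of the array (given below). The counts were 0 of 47 at a limma adjusted p below 0.05 (background 0%), 1 at an unadjusted p below 0.05 (background 5.79%), which was Col23a1, and 0 without overlap (background 0.504%). Col23a1 averaged 6.06 ± 0.14 in metastases and 6.32 ± 0.15 in tumour bladders (SD, n = 4 and 7), a log2 difference of -0.257 (SE 0.107, limma adjusted p = 0.847), and over the 12 arrays it was the 1 member whose groups did not overlap (background 12.4%, or 7.64% lower), while limma's adjusted p called 3 genes (0.00995%) and no member there. Col12a1 averaged 6.75 ± 0.62 in metastases and 7.57 ± 1.26 in tumour bladders (SD, n = 4 and 7), a difference of -0.816 (SE 0.519, limma adjusted p = 0.87), or -1.48 over the 12 arrays, -0.077 within the 8 and -0.368 without tumour bladder 6. Lum averaged 8.32 ± 0.12 in metastases and 7.73 ± 1.40 in tumour bladders (SD, n = 4 and 7), a difference of 0.587 (SE 0.593, limma adjusted p = 0.903) that was 0.195 without tumour bladder 1. Fmod (-0.285, SE 0.172) and Col25a1 (-0.158, SE 0.1) lay lower, and Col14a1 (0.192, SE 0.207) and Col15a1 (0.111, SE 0.14) higher, in metastases, with limma adjusted p of at least 0.863 for these 4. By sign 9 members were higher and 38 lower in metastases, 19.1% higher against 43.9% of all genes, but 24 were higher with arrays centred on their medians and 15 with renewed quantile normalisation. There were 7 over the 12 arrays but 29 within the 8 (median 0.036), 18 without tumour bladder 1, 14 without metastasis 1, 3 without metastasis 2 and 19 with the palbo metastasis counted as a metastasis. All 11 fibrillar chains had negative differences (median -0.099), against 8 with arrays centred, 8 without tumour bladder 6 and 4 within the 8 arrays. Metastasis 2 had the liver gene Alb at 9.40, against 5.03 to 6.13 on all other arrays, and metastases 1 and 2 had a mean of 8.70 and 8.23 over 5 macrophage genes, against 5.97 to 7.45 on tumour bladders; their part in these values was not tested.

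Between treated and normal bladders no member passed either. There were 0 of 47 at a limma adjusted p below 0.05 (background 0%), 0 at an unadjusted p below 0.05 (background 0.358%) and 0 without overlap (background 0.65%). By sign 9 members were higher and 38 lower in treated bladders, 19.1% higher against 46.7% of all genes, but 22 were higher with arrays centred on their medians and 17 with renewed quantile normalisation. The number was 19 without treated bladder 3 (median -0.02), 21 with array weights, 15 with the replicate block, 17 over the 12 arrays and 5 without normal bladder 4. The smallest p-values belonged to Col28a1 (log2 difference -0.213, SE 0.147), Col15a1 (-0.208, SE 0.164) and Col23a1 (-0.156, SE 0.124) among the lower members and to Col18a1 (0.08, SE 0.107), Col6a1 (0.1, SE 0.193) and Col17a1 (0.06, SE 0.121) among the higher. Over the 12 arrays, which leave 2 normal bladders, 10 members did not overlap, or 21.3% against 12.3% of all genes (6.24% higher and 6.08% lower). Of these, Col4a1, Col4a2, Col6a1 and Col18a1 were higher in treated bladders, and Lum, Dcn, Ogn, Col14a1, Col4a5 and Col25a1 were lower. Lum had the largest of these differences at -1.79 (SE 0.998, limma adjusted p = 1), with 7.52 to 7.88 on treated bladders and 9.18 and 9.70 on normal bladders 1 and 2. On these 12 arrays 6 of 7 fibroblast markers (median -0.443), 8 of 8 smooth muscle genes (median -1.37) and 5 of 5 endothelial genes (median -0.384) were also lower in treated bladders, 4, 4 and 1 of them without overlap, and their part in the member values was not tested. Over the 20 arrays the Lum difference was -0.724, where normal bladders 4, 5 and 6 had 7.42 to 7.98.

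Between metastases and normal bladders, Col23a1 and Col9a1 were the 2 members whose groups did not overlap, both lower in metastases, and no member passed. Those 2 are 4.26% of the members against 2.85% of all genes, of which 1.79% were lower. There were 0 of 47 at a limma adjusted p below 0.05 (background 0%) and 2 at an unadjusted p below 0.05 (background 6.91%), Col23a1 and Col25a1. Col23a1 averaged 6.06 ± 0.14 in metastases and 6.44 ± 0.11 in normal bladders (SD, n = 4 and 5), a log2 difference of -0.374 (SE 0.114, limma adjusted p = 0.717). Its difference was -0.416 over the 12 arrays and lay between -0.302 and -0.421 under every alternative computed. Col25a1, a transmembrane collagen known from nerve tissue, averaged 5.32 ± 0.15 in metastases and 5.63 ± 0.16 in normal bladders (SD, n = 4 and 5), a difference of -0.305 (SE 0.107, limma adjusted p = 0.72). Col9a1, a FACIT chain of cartilage, averaged 5.49 ± 0.08 in metastases and 5.67 ± 0.15 in normal bladders (SD, n = 4 and 5), a difference of -0.177 (SE 0.115, limma adjusted p = 0.774). Over all arrays Col25a1 (5.493) and Col9a1 (5.605) averaged close to the median gene (5.40). Both, and Col23a1 too (range 0.628 on the 12 arrays), are among the members of narrow range, which followed the overall level of the array. Col6a5 was higher in metastases, at 0.284 (SE 0.22, limma adjusted p = 0.818), with 5.98, 6.71, 5.90 and 5.99 on metastases and 5.62, 5.61, 5.80, 6.00 and 6.27 on normal bladders. Col10a1 (0.161, SE 0.209) and Col4a1 (0.073, SE 0.101) were the next higher members by p, and Col14a1 (-0.413, SE 0.222) was the next lower. By sign 12 members were higher and 35 lower in metastases, 25.5% higher against 47.3% of all genes, but 19 were higher with arrays centred on their medians and 16 with renewed quantile normalisation. It was 19 too when the palbo metastasis joined the metastases, and 14 both over the 12 arrays and within the 8. All 9 FACIT chains had negative differences under each of these scalings, and 8 did within the 8 arrays. Over the 12 arrays, 2 metastases against 2 normal bladders, 30 members did not overlap (63.8% against 47.2% of all genes), 5 higher (background 22.2%) and 25 lower (background 25%) in metastases, and limma's adjusted p called 3 genes (0.00995%) and no member. The markers moved there too: 5 of 7 fibroblast genes (median -0.637), 8 of 8 smooth muscle genes (median -4.00) and 5 of 5 endothelial genes (median -0.446) were lower in metastases, and their part was not tested.

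The palbo metastasis is 1 array, so nothing was tested on it. Its Col1a1 (8.36), Col1a2 (7.23) and Col3a1 (7.63) were close to those of metastasis 2 (8.28, 7.11 and 7.40) and above those of metastases 1, 3 and 4. Its Lum (9.29) was above, and its Dcn (7.82) and Ogn (5.87) below, the levels of all 4 metastases (Lum 8.20 to 8.47, Dcn 8.01 to 9.76, Ogn 5.89 to 6.96). Smooth muscle actin Acta2, at 4.58, was the lowest of all arrays, and S100a8, at 11.89, was second to tumour bladder 6.

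The 31 members with a range under 1 unit followed the overall level of the array. Of these 31, 21 were highest on tumour bladder 1 and 7 on tumour bladder 2, and their mean correlated with the array's median over all genes at r = 0.922 on the 12 arrays (rho = 0.874, adjusted permutation p = 0.0001 and 0.0016) and 0.863 without tumour bladders 1 and 2. Within the 8 arrays r was 0.976 (rho = 0.952, adjusted exact permutation p = 0.0054 and 0.027). Tumour bladder 1 had the highest median over all genes (5.535) and over all rows (5.48). Col16a1, Col20a1, Col19a1 and Col26a1, chosen here after their values were seen, ranged over 0.355, 0.327, 0.474 and 0.472, and all 4 were highest on tumour bladder 1.

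**Figure D5:**
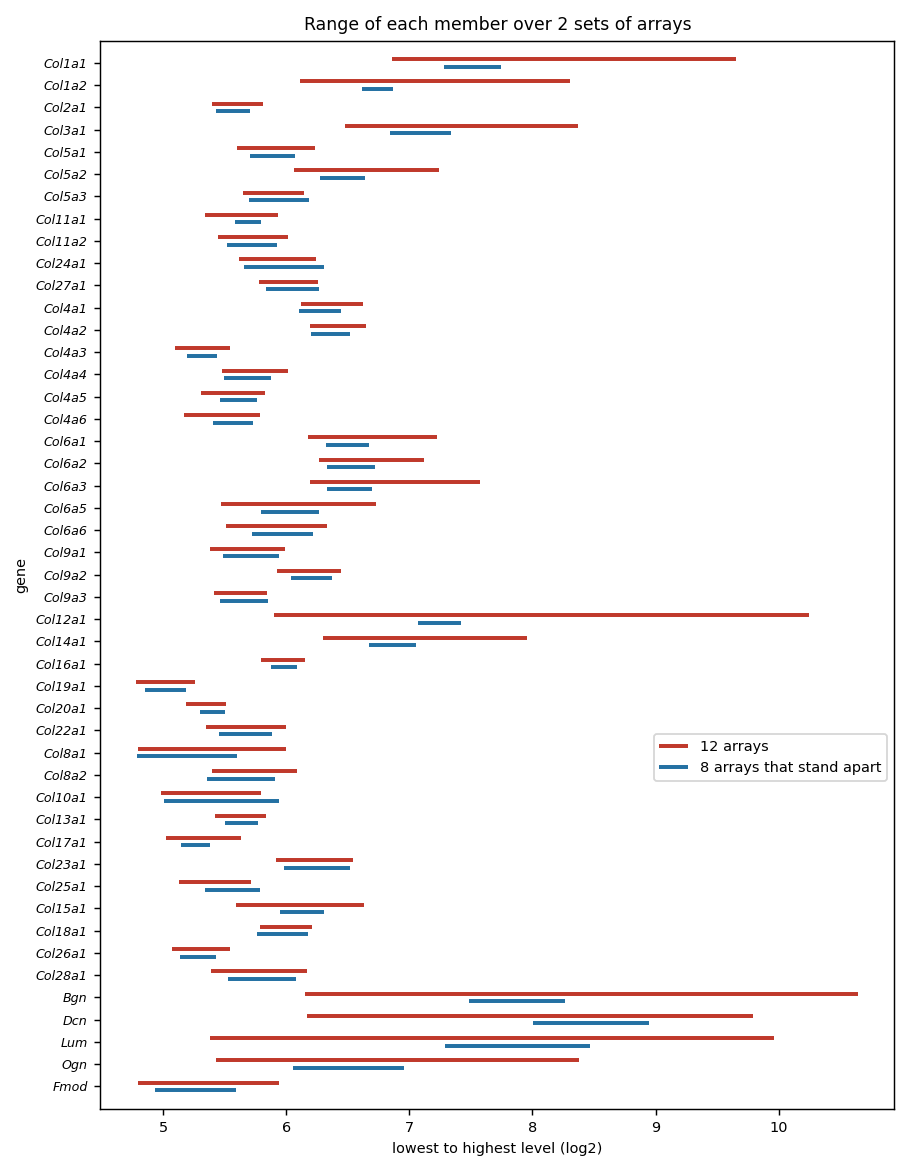
Lowest to highest level (log2) of each member over the 12 arrays (red) and over the 8 arrays that stand apart (blue). Lum runs from 5.38 to 9.96 on the 12 arrays and from 7.29 to 8.47 on the 8, and most members span less than 1 unit on both.

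The genes around the collagens gave no call either. Of the 28 collagen processing genes, 0 passed in any of the 5 comparisons, with medians of 0.091 for tumour against normal bladders, -0.098 for treated against tumour bladders, -0.005 for metastases against tumour bladders (0.053 with arrays centred), -0.022 for treated against normal bladders (0.038 with arrays centred) and 0.068 for metastases against normal bladders. Of these 28, 21 were higher in tumour than in normal bladders, but 14 were without tumour bladder 6 (median -0.007) and 9 within the 8 arrays. Of the 10 further proteoglycans 0 passed, and in metastases against tumour bladders 8 of 10 were lower, or 7 with arrays centred on their medians.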

How the data were processed

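Expression was measured on Affymetrix arrays in 20 samples. Per the labels' protocols, RNA was taken with a kit for FFPE tissue and biotinylated sense-strand DNA was hybridised, and per the submitters' processing notes the authors made the values with RMA in Affymetrix Expression Console. The deposited table holds these log2 values, 1 column per array, with the base taken as 2 and a highest value of 22.0. It has 65956 rows, of which 30604 carry 1 gene symbol and 2146 carry several, and 827 symbols were updated from RefSeq. The row with the highest mean stood for a gene, which left 30142 genes.

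Groups came from the labels. Differences were tested with limma 3.58.1 in R 4.3.3 over the 20 arrays (lmFit and eBayes, 2-sided, Benjamini-Hochberg over 30142 genes, threshold 0.05), in 1 fit of all groups that shares its estimate of the spread. Correlations used permutation tests in SciPy 1.17.1 under Python 3.11.15. In each comparison, the text names the 3 higher and the 3 lower members of smallest p, along with fixed members of each class. Alternatives were renewed quantile normalisation, arrays centred on their medians, array weights, a trended and robust prior, a fit of 2 groups only, the mean of a gene's rows, dim genes left out, the palbo metastasis counted as a metastasis, a log2 difference of at least 1 as a second condition, the replicate block, the 8 arrays left out, taken alone or as a term, and each array left out in turn. The members, lists and tests were chosen with earlier results of these data known. The correlations of neighbouring genes, those within the 8 arrays and the range cutoffs were added after the data were seen. The other floxed genes are not reported here.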

Additional observations from a re-analysis of the deposited data

Results flagged for a closer look

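In 96 groups of 4 to 7 arrays over the 32 members named, 4 had an array far from the others, measured as its gap to the nearest array over the whole range of the group. Chance gives such a gap in about 1 in 20 groups. Col12a1 was at 10.25 on tumour bladder 6, the highest of the 7 tumour bladders, with the next at 7.78. Col6a5 was at 6.71 on metastasis 2, the highest of the 4 metastases, with the others at 5.90 to 5.99. Col11a1 was at 5.34 on metastasis 1, the lowest of the 4, with the others at 5.68 to 5.70. Col9a1 was at 5.94 on normal bladder 6, the highest of the 5 normal bladders, with the others at 5.58 to 5.66.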

How the results depend on the processing

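No setting gave a called member in any of the 5 comparisons, and the smallest adjusted p of a member in any setting (limma) was 0.283 for tumour against normal bladders, 0.555 for treated against tumour bladders, 0.5 for metastases against tumour bladders, 0.188 for treated against normal bladders and 0.171 for metastases against normal bladders. Several differences changed sign, among them Col14a1 (-0.413 in the main fit) and Col6a5 (0.284) for metastases against normal bladders. Leaving out the 8 arrays that stand apart gave Col28a1 0.029 for tumour against normal bladders. Array weights gave Col6a3 0.001 for treated against tumour bladders and Col17a1 -0.006 for treated against normal bladders. Within the 8 arrays, Col15a1 was at -0.106 for metastases against tumour bladders, and for metastases against normal bladders Col6a5 was at -0.077, Col10a1 at -0.124, Col4a1 at -0.056 and Col14a1 at 0.003. The replicate block gave Col17a1 -0.044 for treated against normal bladders and changed no other sign among the named results. The labels do not say whether replicate numbers pair the samples. Deviations of same-numbered samples from their group means correlated at -0.506 to 0.33. Samples of unlike number were not compared in this way, so these values cannot decide whether the numbers pair samples. Leaving out 1 array at a time moved Col4a6 for treated against tumour bladders between -0.002 (without treated bladder 2) and 0.174, and Col15a1 for metastases against tumour bladders between -0.04 (without metastasis 1) and 0.188. The cause of these changes was not tested. Over 28 members of the classes described, 324 of 2940 differences changed sign.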
